A study of Mus musculus with 10 samples.

Results

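The integrated stress response was followed in mouse liver through 10 genes chosen by symbol, all of them found among the 17274 genes of the deposited expression table. They are the transcription factors Atf4, Atf5 and Ddit3, the enzymes Asns, Psat1 and Chac1, the pseudokinase Trib3, the stress protein Sesn2, and the secreted hormones Fgf21 and Gdf15. Bulk RNA-seq was made from livers of wild-type mice (genotype WT) on a choline-deficient, amino acid-defined, high-fat diet, abbreviated CDAHFD and used to bring on nonalcoholic steatohepatitis, in which a fat-laden liver becomes inflamed and fibrotic. In 5 livers the mice had received AAV-miR-181d-5p, an adeno-associated virus (a gene delivery vector) that encodes the microRNA miR-181d-5p, by vein. In the other 5 livers they had received a control AAV. The diet is common to both groups, so no liver on a normal diet serves as a baseline, and strain, age, sex and the promoter of the vector are not given in the sources used here. Since the labels do not state that each liver is a separate animal, the p-values speak only to spread among these 10 samples, which may be partly technical.

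The integrated stress response is a shared reaction to amino acid shortage, misfolded protein in the endoplasmic reticulum, mitochondrial damage, viral RNA and lack of heme. Each of these activates a kinase that phosphorylates the initiation factor eIF2 on its alpha subunit, which lowers most protein synthesis but lets the Atf4 message be translated through upstream open reading frames in its leader. Atf4 protein then dimerizes with C/EBP factors and switches on genes for amino acid synthesis and uptake, for feedback inhibitors such as Trib3, and for cell death regulators such as Ddit3, which encodes CHOP. In liver it also drives Fgf21, a hormone that acts on fat tissue and brain.

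Atf4 with its partners binds a composite sequence, the C/EBP-ATF response element, whose core can be written TGATGNAA, or TTNCATCA on the other strand. These letters were searched on both strands of 300-base promoter windows (250 bases before to 50 after a gene's start, RefSeq, GRCm38.p6), with no other motif searched. Of the 10 members, each with at least 1 window, 4 held a match, against 2.77% of the 9659 tested genes with a window and 3.97% of all 32851 windows. The 4 windows are shown because they hold a match to the core of the element through which the response is known to act. Capitals mark the match, and each reads 5′ to 3′ on the strand of its gene.
Trib3 (chr2:152344011-152344310, reverse strand): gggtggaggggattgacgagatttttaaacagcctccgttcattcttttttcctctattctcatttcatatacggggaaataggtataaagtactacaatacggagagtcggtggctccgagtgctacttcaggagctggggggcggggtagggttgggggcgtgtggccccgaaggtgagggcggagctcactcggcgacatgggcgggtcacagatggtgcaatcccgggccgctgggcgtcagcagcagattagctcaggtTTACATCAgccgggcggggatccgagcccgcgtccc
Chac1 (chr2:119350992-119351291, forward strand): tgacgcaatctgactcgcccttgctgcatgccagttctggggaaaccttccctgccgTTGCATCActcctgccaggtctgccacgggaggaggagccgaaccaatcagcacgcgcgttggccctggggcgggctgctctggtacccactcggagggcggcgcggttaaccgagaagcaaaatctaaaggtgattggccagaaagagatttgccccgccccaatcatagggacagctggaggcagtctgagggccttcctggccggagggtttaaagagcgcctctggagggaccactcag
Fgf21 (chr7:45615441-45615740, reverse strand): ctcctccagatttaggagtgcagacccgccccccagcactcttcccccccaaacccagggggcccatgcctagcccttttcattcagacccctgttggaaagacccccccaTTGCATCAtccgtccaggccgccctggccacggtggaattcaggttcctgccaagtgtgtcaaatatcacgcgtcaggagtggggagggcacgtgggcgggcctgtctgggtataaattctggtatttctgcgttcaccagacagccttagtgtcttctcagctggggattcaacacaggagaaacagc
Asns (chr6:7693160-7693459, reverse strand): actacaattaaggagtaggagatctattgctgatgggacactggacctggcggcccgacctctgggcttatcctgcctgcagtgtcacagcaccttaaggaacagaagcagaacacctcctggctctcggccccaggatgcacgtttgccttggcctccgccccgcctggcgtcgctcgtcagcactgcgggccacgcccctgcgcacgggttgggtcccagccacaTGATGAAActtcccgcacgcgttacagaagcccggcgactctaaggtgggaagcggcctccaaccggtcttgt
The match begins 14 bases after the start in Trib3, 23 bases before it in Asns, 139 before it in Fgf21 and 193 before it in Chac1. Atf4, Atf5, Ddit3, Gdf15, Sesn2 and Psat1 have no match to these letters in their windows. Sequence outside the windows was not searched, so an element farther off would be missed. The members were chosen as genes of this response, so their share of matches is a description. A match is a string of letters and not a measured binding site.

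The vector's product is shown because its seed, in capitals at positions 2 to 8, is what pairs with messages.
mmu-miR-181d-5p: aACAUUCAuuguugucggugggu
Matches to the seed (the complement of positions 2 to 8, or of positions 2 to 7 followed by A) were searched in the longest annotated 3′ UTR of a protein-coding transcript of each gene. None of the 10 members held 1, against 23.0% of 11770 tested genes (2702 genes). The members' 3′ UTRs are short, with a median of 394 bases against 1114 for the tested genes, and run from 81 bases in Atf4 to 1684 in Sesn2.

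Values are FPKM, fragments scaled to gene length and to the reads assigned in a library, so levels can be compared between genes. Libraries held 18985912 to 20657019 assigned reads, recovered from the FPKM as described under processing. Albumin, the main secreted protein of hepatocytes, stood at 21362 to 24205 FPKM in miR-181d-5p livers and at 20759 to 24746 FPKM in control livers. Control liver 5 stood apart in single genes and over the table. Leaving it out raised the genes at an unadjusted limma p under 0.05 from 1768 to 2587. Leaving out any other single liver gave 1074 to 1931. Its FPKM sum, 502752, was the highest of the 10 libraries, while control livers 1 and 2 had the lowest, 440782 and 444090. The sum alone thus does not single out control liver 5. Atf3, a bZIP factor induced by many stresses, was at 157 FPKM there and at 27.6 to 71.3 FPKM in the other 9 livers. Jun was at 132 FPKM there and at 35.4 to 66.2 FPKM in the other 9. Jun is named here after its values were seen. Not all stress genes were high there, with Asns and Sesn2 the 9th of the 10 livers from the top. Where leaving out this liver, a choice made after seeing the data, changes a count given for a gene list, the count without it stands beside it.

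By log2 change, 9 of the 10 members were higher and 1 was lower in miR-181d-5p livers than in controls, with a median log2 change of 0.29 (10 of 10 higher and 0.24 without control liver 5). Over all 12053 genes tested, 45.5% were higher and the median log2 change was -0.018. None of the members passed the adjusted test: limma with Benjamini-Hochberg adjustment called 0 of 12053 genes at 0.05 (0%), and the adjusted p of the members ran from 0.288 to 0.931. At an unadjusted p under 0.05 there were 2 members, Atf5 and Fgf21, both higher, against 5.04% of tested genes higher at that level and 14.7% (1768 genes) in either direction. Of those 1768 genes 34.3% were higher. After scaling to a common FPKM sum, 21.5% of 1613 genes under 0.05 were higher, and after quantile normalization 51.4% of 1939. The same 2 members were under 0.05 with each scaling. In none of the members did the groups separate, as they did in 2.47% of tested genes. Limma voom on recovered reads called 0 genes, and with quality weights 2 genes, neither a member. In bulk tissue, fewer cells of a type and less RNA per cell cannot be told apart.

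**Figure D1:**
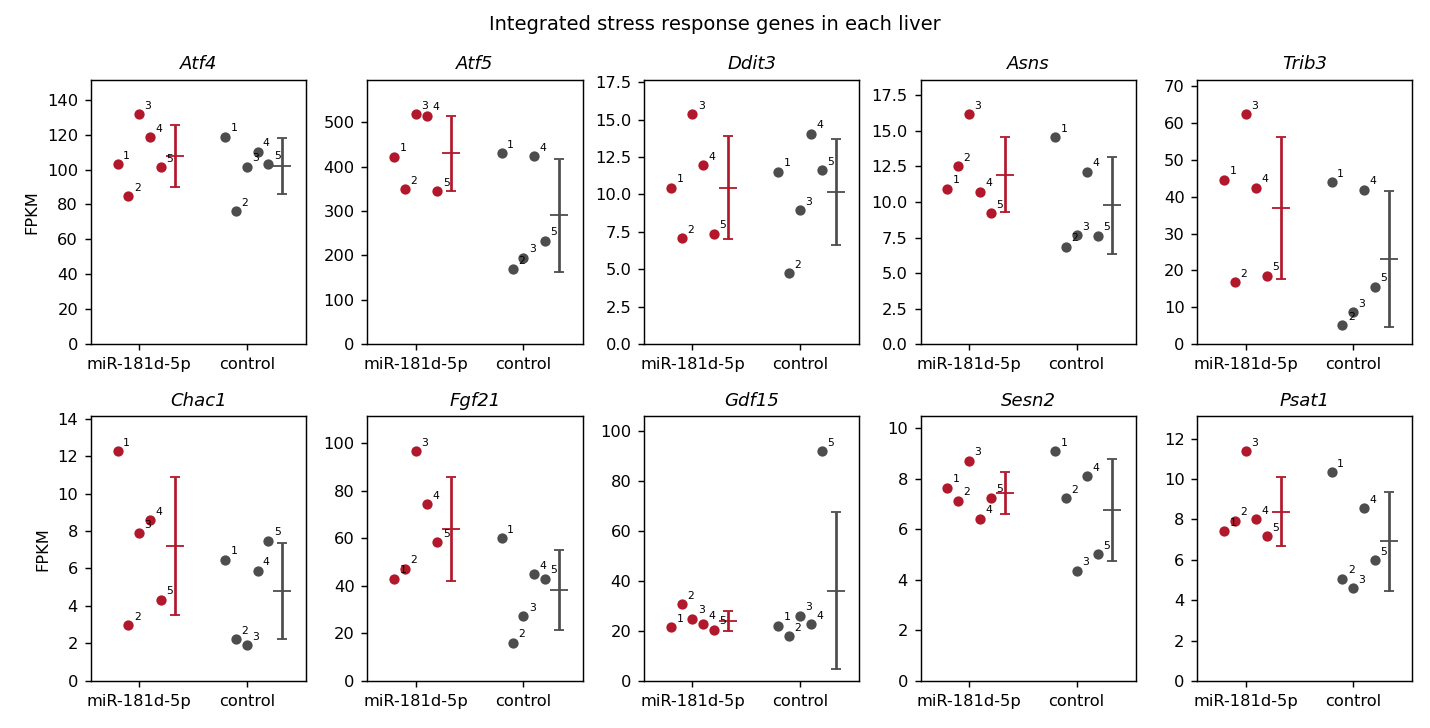
FPKM of each of the 10 genes in each liver, with miR-181d-5p livers left of control livers, points numbered by liver, and a bar for the mean with its SD (n = 5 each). Groups overlap in every panel, Trib3 splits into livers above 40 and below 20 FPKM in both groups, and Gdf15 is level except for control liver 5 at 92.0 FPKM.

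Among the transcription factors, Atf4, the effector of the response, was at 103, 84.6, 132, 119 and 101 FPKM in miR-181d-5p livers 1 to 5, against 119, 76.0, 102, 110.1 and 103 FPKM in control livers 1 to 5. Liver 2 was the lowest of its group in each case and the groups overlapped almost fully. The means were 108 ± 17.9 and 102 ± 16.0 FPKM (SD, n = 5 each), a log2 change of 0.08 (SE 0.13, adjusted p = 0.794 by limma). Its 95% interval, -0.20 to 0.36 on the log2 scale, allows neither a doubling nor a halving of the message. Without control liver 2 the log2 change was -0.021. The level of Atf4 protein, which translation sets, was not measured.

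Atf5, a relative of Atf4 that is abundant in liver and is also controlled through upstream reading frames, was the most abundant member. It was at 422, 349.6, 518, 514 and 344 FPKM in miR-181d-5p livers, against 429, 169, 195, 423 and 233 FPKM in controls. All miR-181d-5p livers lay at or above 344 FPKM, and so did control livers 1 and 4, while control livers 2, 3 and 5 lay well below. The means were 429.6 ± 84.6 and 290.0 ± 127 FPKM, a log2 change of 0.65 (SE 0.25, 95% interval 0.11 to 1.196). The unadjusted limma p was 0.0223 and the adjusted p 0.288.

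Ddit3, which encodes the pro-apoptotic factor CHOP, was at 10.4, 7.07, 15.4, 11.96 and 7.39 FPKM in miR-181d-5p livers, against 11.5, 4.73, 8.93, 14.1 and 11.6 FPKM in controls. Its ranges overlapped nearly fully, and the log2 change was 0.06 (SE 0.25, limma adjusted p = 0.931). It turned to -0.17 without control liver 2, to -0.086 without miR-181d-5p liver 3 and to -0.002 without miR-181d-5p liver 4. The annotation holds a pair of overlapping genes of this symbol, so its values are uncertain.

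Trib3, which binds and restrains the kinase Akt and feeds back on Atf4, varied most. It was at 44.6, 16.8, 62.3, 42.4 and 18.6 FPKM in miR-181d-5p livers, against 43.9, 5.20, 8.75, 41.9 and 15.6 FPKM in controls. In both groups some livers were above 40 FPKM (miR-181d-5p livers 1, 3 and 4, control livers 1 and 4) and the rest below 20 FPKM, with none between. The lowest and highest of the 10 livers differed 11.98-fold, on 204 to 2427 reads. The means were 37.0 ± 19.2 and 23.1 ± 18.5 FPKM, and the log2 change of 0.90 (SE 0.54) had an adjusted p of 0.44 by limma. Its 95% interval, -0.26 to 2.07, includes 0.

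Chac1, which degrades glutathione and whose promoter is among those shown above, was the least abundant member. It was at 12.3, 2.96, 7.89, 8.56 and 4.33 FPKM in miR-181d-5p livers, against 6.46, 2.23, 1.90, 5.89 and 7.48 FPKM in controls. The lowest livers were miR-181d-5p liver 2 and control livers 2 and 3. The log2 change was 0.51 (SE 0.36, adjusted p = 0.513 by limma) and understates the change of a gene this low: with a pseudocount of 0.1 it was 0.61.

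The amino acid enzymes stood at similar levels, and their values went together over the livers (Pearson r 0.95 with group means removed, a description). Asns, which makes asparagine, was at 10.9, 12.5, 16.2, 10.7 and 9.22 FPKM in miR-181d-5p livers, against 14.6, 6.86, 7.65, 12.1 and 7.63 FPKM in controls. Psat1, which makes phosphoserine on the way to serine, was at 7.42, 7.93, 11.4, 8.01 and 7.17 FPKM in miR-181d-5p livers, against 10.3, 5.06, 4.61, 8.57 and 5.99 FPKM in controls. For each enzyme, control livers 2, 3 and 5 lay below every miR-181d-5p liver and control livers 1 and 4 lay among or above most of them. The log2 changes were 0.29 (SE 0.19) for Asns and 0.28 (SE 0.19) for Psat1. Neither passed (limma adjusted p = 0.477 and 0.48).

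Sesn2, a leucine sensor that restrains mTORC1, was at 7.65, 7.14, 8.72, 6.42 and 7.25 FPKM in miR-181d-5p livers, against 9.11, 7.22, 4.36, 8.10 and 5.02 FPKM in controls. The miR-181d-5p livers lay inside the control range. The log2 change was 0.16 (SE 0.16, limma adjusted p = 0.655). Its paralogs Sesn1 and Sesn3 averaged 7.07 and 4.06 FPKM in miR-181d-5p livers and 7.07 and 4.85 FPKM in controls.

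Of the secreted members, Fgf21 was at 43.0, 47.2, 96.8, 74.4 and 58.4 FPKM in miR-181d-5p livers, against 60.1, 16.1, 27.3, 44.9 and 43.1 FPKM in controls. Control livers 2 and 3 lay below every miR-181d-5p liver, and the other 3 controls lay within the miR-181d-5p range. The means were 63.9 ± 22.004 and 38.3 ± 17.0 FPKM, or 167% of control, with a log2 change of 0.79 (SE 0.31, 95% interval 0.12 to 1.46). The unadjusted limma p was 0.0242 and the adjusted p 0.296. The calls of Atf5 and Fgf21 at the unadjusted level each changed with single livers left out. Leaving out control liver 2, control liver 3, miR-181d-5p liver 3 or miR-181d-5p liver 4 left no member under 0.05, and leaving out control liver 1 put 5 members there, with Trib3, Asns and Psat1 added. Without miR-181d-5p liver 3 the members' median log2 change was 0.18.

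Gdf15, a stress hormone that curbs appetite through the brainstem, was the 1 member with a lower mean in miR-181d-5p livers. It was at 21.5, 30.6, 24.9, 22.7 and 20.5 FPKM in miR-181d-5p livers, against 22.03, 17.8, 26.1, 22.7 and 92.0 FPKM in controls. Apart from control liver 5 all livers lay between 17.8 and 30.6 FPKM. The log2 change was -0.29 (SE 0.34, adjusted p = 0.702 by limma) and became 0.11 without control liver 5. The same liver was highest for Atf3, at 42.0, 38.5, 51.5, 37.0 and 35.7 FPKM in miR-181d-5p livers, against 51.6, 27.6, 71.3, 54.9 and 157 FPKM in controls. It was highest too for Ppp1r15a, the inducible phosphatase subunit that reverses eIF2 phosphorylation, named here after its values were seen, at 9.82 to 12.3 FPKM in miR-181d-5p livers, against 7.78 to 11.2 FPKM in control livers 1 to 4 and 28.2 FPKM in control liver 5. Trib3 in that liver, at 15.6 FPKM, was the median of the controls. The part of control liver 5 in the other differences was not tested beyond leaving it out.

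**Figure D2:**
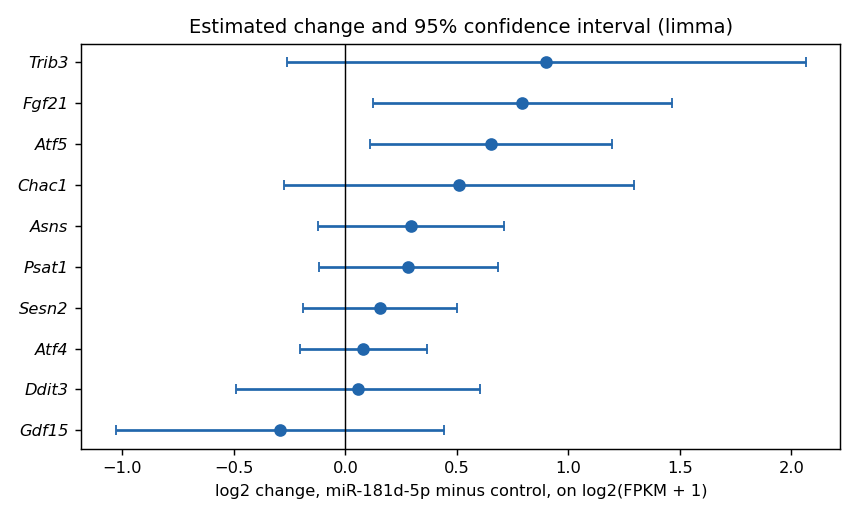
Log2 change of each gene (miR-181d-5p minus control, on the log2(FPKM + 1) scale) with its 95% confidence interval from limma. The intervals of Atf5 and Fgf21 lie above 0, the other 8 include 0, and Trib3 has the widest.

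The spread between livers of 1 group was larger for these genes than for most. The within-group SD of log2 values lay above that of 90% of tested genes for 9 of the 10 members, and Atf4, at 86.6%, was the exception. Without control liver 5 it was again 9 of 10, with Atf4 at 91.6% and Gdf15 the exception at 85.7%. Trib3 stood at 99.9% with all livers. All 10 members had the larger SD in the control group, as did 76.1% of tested genes, although for Atf4 the SDs were nearly equal (0.240 in miR-181d-5p livers and 0.242 in controls, on the log2 scale). Without control liver 5 that count was 9 of 10, against 68.8% of tested genes, since Gdf15 then had 0.220 in miR-181d-5p livers and 0.217 in controls. On the FPKM scale the control SD was larger for 6 of 10 members and 77.1% of tested genes. For Atf5 the SDs were 0.29 in miR-181d-5p livers and 0.63 in controls, and for Sesn2 0.14 and 0.39.

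**Figure D3:**
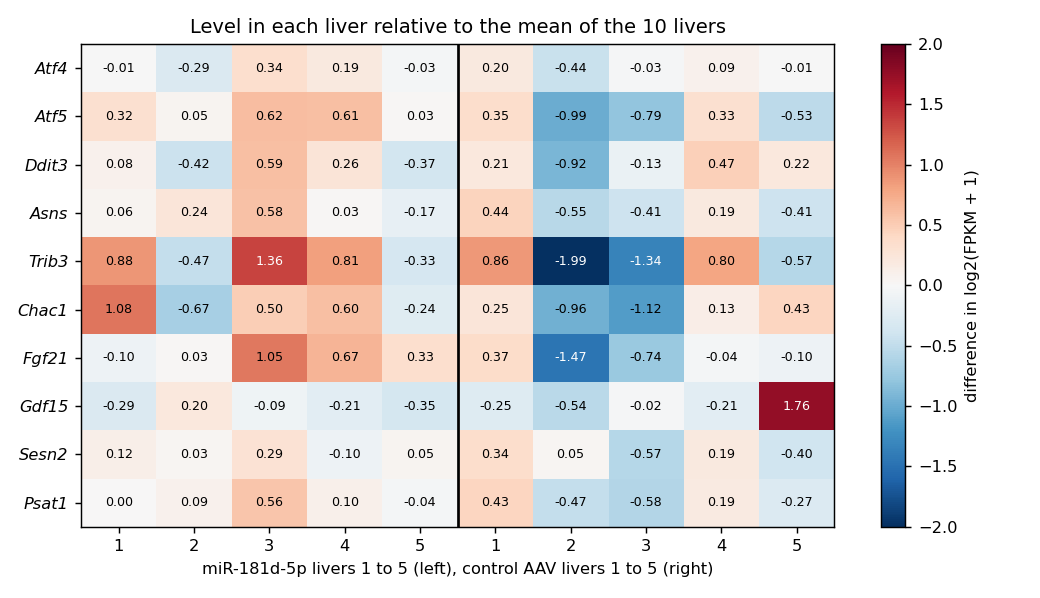
Difference of each liver from the mean of the 10 livers in log2(FPKM + 1), with miR-181d-5p livers 1 to 5 left of control livers 1 to 5. MiR-181d-5p liver 3 and control liver 1 are above the mean in 9 of 10 genes, control liver 2 in 1, and control liver 3 in none.

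Livers differed as wholes. MiR-181d-5p liver 3 was among the 3 highest of the 10 livers for 9 members, Gdf15 being the exception, and control liver 1 for 7 members. Control liver 2 was among the 3 lowest for 9 members and control liver 3 for 7. Livers above the mean in most members occurred in both groups. After each group mean was removed, the 36 pairs of members without Gdf15 all had a positive Pearson r over the 10 livers, from 0.18 to 0.97 with a median of 0.76. The 9 pairs with Gdf15, set apart without a prior plan, ran from -0.50 to 0.27. These are descriptions: the values of a pair share a library, pairs of other genes were not compared, and no p is given.

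Atf4 message and the other members were also compared with the group means left in. Over the 10 livers Pearson's r with Atf4 was 0.91 for Ddit3 (Spearman's rho 0.92), 0.83 for Trib3 (0.76), 0.82 for Fgf21 (0.70) and 0.73 for Atf5 (0.84). It was 0.64 to 0.68 for Asns, Chac1 and Psat1, 0.25 for Sesn2 and 0.03 for Gdf15. Without the 2 livers farthest from the median of Atf4, r was 0.77 for Ddit3 and 0.61 for Trib3, 0.51 for Chac1, 0.42 for Atf5, 0.43 for Fgf21, 0.35 for Psat1 and 0.18 for Asns. The relations of Atf5, Fgf21, Psat1 and Asns with Atf4 thus lean on those 2 livers, whose removal also narrows the range of Atf4. Trib3 spanned 11.98-fold over livers in which Atf4 message spanned 1.73-fold.

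**Figure D4:**
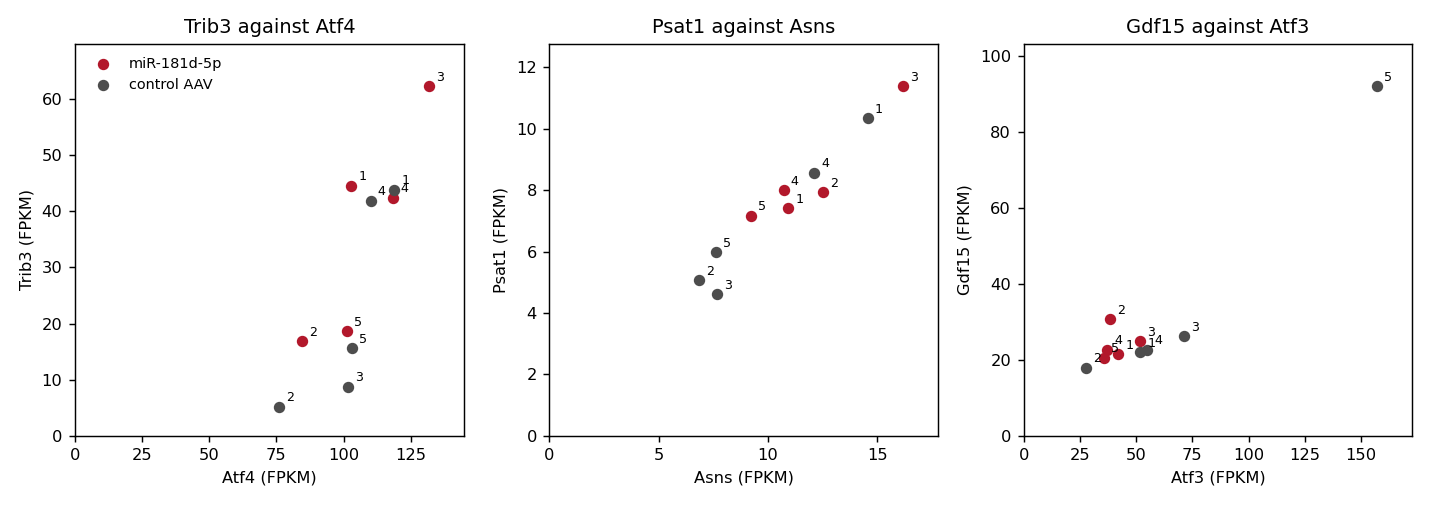
FPKM of Trib3 against Atf4, of Psat1 against Asns, and of Gdf15 against Atf3 in each liver (miR-181d-5p livers in red, control livers in grey, points numbered by liver). Psat1 follows Asns across both groups, and control liver 5 stands alone at 157 FPKM of Atf3 and 92.0 FPKM of Gdf15.

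Of the 12043 other tested genes, 274 predicted genes, clones and pseudogenes were left out. Of the remaining 11769, 33 had an r above 0.9 with the mean standardized profile of the members once group means were removed. The 6 highest were Sars, Faf1, Slc39a7, Chid1, Golga5 and Mrps18b, with r from 0.955 to 0.967 over 10 livers. Slc39a7 encodes a zinc transporter of the secretory pathway, Golga5 a Golgi golgin and Mrps18b a mitochondrial ribosomal protein. Sars, the cytosolic seryl-tRNA synthetase, led at 0.967. It was at 35.3, 34.1, 41.8, 36.0 and 31.3 FPKM in miR-181d-5p livers, against 37.6, 22.2, 27.1, 36.9 and 30.2 FPKM in controls, with control livers 2 and 3 the lowest of the 10. Sars was picked for its likeness to the members, so this order largely follows from the choice. How many genes would pass 0.9 by chance over 10 livers was not estimated.

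The upstream steps of the response showed small differences. Of 8 tested genes for eIF2 alpha kinases and proteins that regulate or relay to them, 4 were higher and 4 lower, with 0 at an unadjusted limma p under 0.05 in either direction and a median log2 change of -0.0022. Leaving out control liver 5 gave 3 higher and 5 lower, 1 of them at that level. Impact, an inhibitor of the kinase GCN2, had the smallest p, at 1.64 ± 0.211 FPKM in miR-181d-5p livers and 1.96 ± 0.204 FPKM in controls (log2 change -0.16, limma adjusted p = 0.361). Eif2ak3, which encodes PERK, the kinase of the endoplasmic reticulum, averaged 10.8 ± 1.86 FPKM in miR-181d-5p livers and 11.96 ± 1.31 FPKM in controls. Eif2ak1, which encodes HRI, the heme-regulated kinase, averaged 20.7 ± 0.853 and 19.4 ± 1.74 FPKM in the same order. Of 11 subunits of eIF2, its exchange factor eIF2B and its phosphatases, 7 were higher and 4 lower, again with 0 at that level. When control liver 5 was left out, 9 were higher and 2 lower, 1 of them at that level, and the log2 change of Ppp1r15a was 0.16, against -0.13 with it. Over all tested genes 14.7% were at that level with all livers. Without control liver 5, 2587 genes were, 30.7% of them higher. Ppp1r15b, the constitutive phosphatase subunit, averaged 20.3 ± 1.22 FPKM in miR-181d-5p livers and 23.0 ± 3.26 FPKM in controls (log2 change -0.16).

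Of 9 bZIP partners of Atf4, 7 were lower and 2 higher, and their median log2 change was -0.17. Without control liver 5, 6 were lower, the median was -0.097, and the log2 change of Jun was 0.14, against -0.17 with it. With all livers 2 were at an unadjusted limma p under 0.05, both lower, against 9.63% of tested genes lower at that level. Cebpd averaged 14.1 ± 2.18 FPKM in miR-181d-5p livers and 24.9 ± 10.4 FPKM in controls (log2 change -0.70, SE 0.22, adjusted p = 0.24 by limma). Cebpb averaged 162 ± 16.2 FPKM in miR-181d-5p livers and 205 ± 35.7 FPKM in controls (log2 change -0.33, SE 0.12, adjusted p = 0.257 by limma). Atf3 had a log2 change of -0.59. Control liver 5 was the highest of the 10 livers for each of these 3 genes. Without it the log2 change was -0.50 for Cebpd, -0.26 for Cebpb and -0.26 for Atf3.

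**Figure D5:**
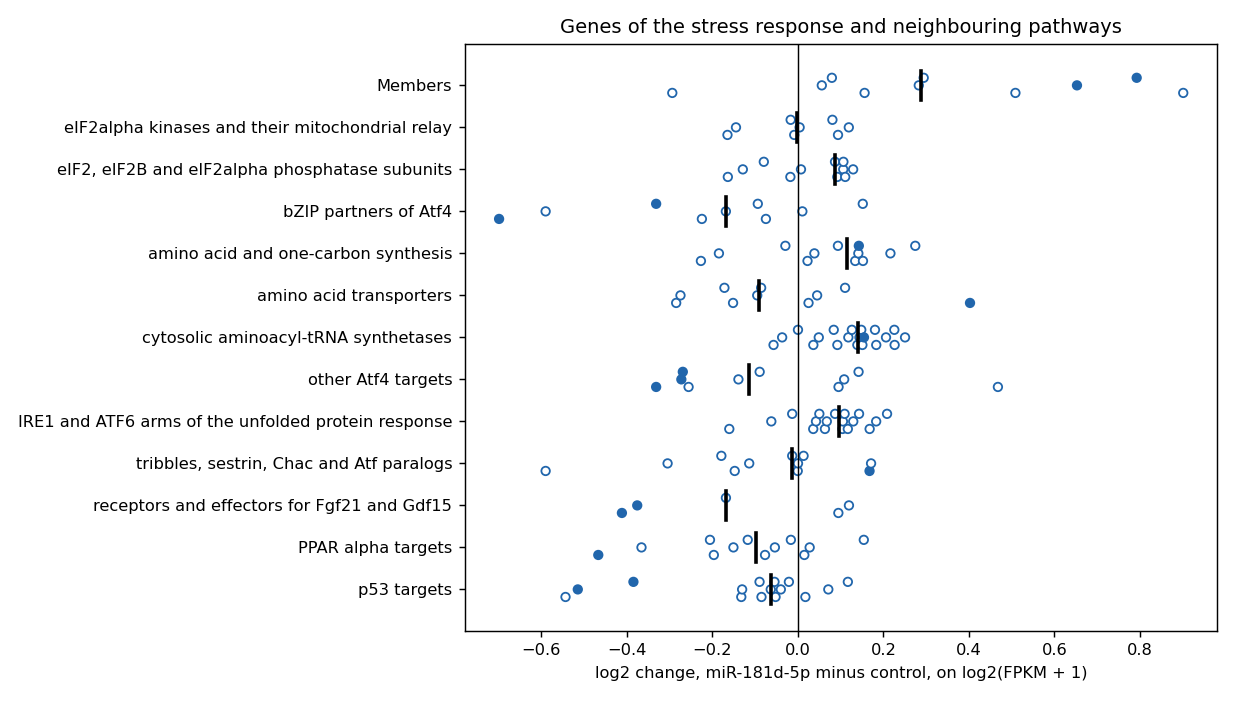
Log2 change (miR-181d-5p minus control, on log2(FPKM + 1)) of each tested gene in the members and 12 related lists, with a bar at each list's median and filled points at an unadjusted limma p under 0.05. The members have a median of 0.29, the bZIP partners and the receptor list medians near -0.17, and that of the bZIP partners is -0.097 without control liver 5.

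Among other targets of the response, genes of amino acid and single-carbon synthesis were higher in 9 of 12 tested, with a median log2 change of 0.11. Shmt2, a mitochondrial serine hydroxymethyltransferase, was the 1 gene at an unadjusted limma p under 0.05, at 86.4 ± 4.88 FPKM in miR-181d-5p livers and 78.1 ± 2.05 FPKM in controls. Pycr1 and Aldh18a1, which make proline, had log2 changes of 0.22 and 0.27. Of 20 cytosolic aminoacyl-tRNA synthetases, which charge tRNAs with amino acids, 18 were higher (16 without control liver 5), with a median of 0.14 and 1 at that level. That gene was Hars, at 25.7 ± 1.80 FPKM in miR-181d-5p livers and 23.0 ± 0.917 FPKM in controls. Tars and Yars had log2 changes of 0.25 and 0.23. Of all tested genes 5.04% were higher at that level. No gene of these lists passed the adjusted test.

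Amino acid transporters were split, with 4 of 10 higher, 6 lower and a median of -0.09. Slc1a4, a carrier of alanine, serine and cysteine, averaged 5.89 ± 1.51 FPKM in miR-181d-5p livers and 4.22 ± 1.32 FPKM in controls (log2 change 0.40, limma adjusted p = 0.331), and was the 1 transporter at an unadjusted p under 0.05. Over all tested genes 5.04% were higher and 9.63% lower at that level. Slc7a2 and Slc38a2 had log2 changes of -0.28 and -0.27. Without control liver 5, 2 transporters were at that level, both lower, and Slc1a4 was not. In that fit 2587 genes over the table were at that level, 30.7% of them higher. A further list of Atf4 targets was split too, with 4 of 10 tested genes higher and 6 lower. Its 3 genes at an unadjusted limma p under 0.05 were all lower: Cebpb, named above, Herpud1, at 180.4 ± 26.3 FPKM in miR-181d-5p livers and 217 ± 31.2 FPKM in controls, and Ndrg1, at 9.17 ± 1.01 and 11.4 ± 2.04 FPKM in the same order. There were 4 without control liver 5, all lower, beside the same 2587 genes of that fit. Nupr1, a small stress-induced nuclear protein named here after its values were seen, was at 40.01, 22.2, 52.5, 28.6 and 18.3 FPKM in miR-181d-5p livers, against 39.3, 6.52, 14.6, 47.7 and 24.0 FPKM in controls. As with Trib3, control livers 2 and 3 were the lowest of the 10.

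The other arms of the unfolded protein response, run by IRE1 and ATF6, held 15 higher genes of 18 tested, with a median of 0.096 and 0 at an unadjusted limma p under 0.05 in either direction. There were 13 higher without control liver 5. Xbp1, the factor spliced by IRE1, averaged 122 ± 17.1 FPKM in miR-181d-5p livers and 107 ± 11.2 FPKM in controls, and Dnajb9, a chaperone it induces, 61.1 ± 6.97 and 53.1 ± 8.80 FPKM in the same order.

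Some members answer to other regulators too, whose targets were counted. Fgf21 is also induced by PPAR alpha, the fatty acid receptor, and of 12 tested genes of PPAR alpha and its targets 9 were lower and 3 higher, with a median of -0.097. With control liver 5 left out, 11 were lower, 3 of them at an unadjusted limma p under 0.05. In that fit 2587 genes over the table were at that level, 30.7% of them higher. Angptl4, a lipoprotein lipase inhibitor, was at 60.3, 62.7, 53.6, 60.1 and 124 FPKM in miR-181d-5p livers, against 97.9, 83.9, 112, 105 and 81.1 FPKM in controls (log2 change -0.47, limma adjusted p = 0.311), and with all livers was the 1 gene of that list at that level. With all livers, 9.63% of tested genes were lower at that level. Sesn2 and Gdf15 are also induced by p53, and of 15 tested p53 targets 12 were lower (10 without control liver 5). Of these, 2 were at an unadjusted limma p under 0.05, against the same 9.63%. Cdkn1a, which encodes the cell cycle inhibitor p21, averaged 30.7 ± 3.33 FPKM in miR-181d-5p livers and 40.3 ± 3.27 FPKM in controls. Its groups did not overlap, and its adjusted limma p was 0.221 (log2 change -0.38, SE 0.08). The part of PPAR alpha or p53 in the values of the members was not tested.

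Of 5 tested genes for FGF receptors and the Fgf21 co-receptor Klb, 3 were lower and 2 higher. At an unadjusted limma p under 0.05 there were 2, both lower, against 9.63% of tested genes lower at that level. None of the 5 passed the adjusted test. No receptor gene for Gdf15 was tested: Ret, listed for it, was under the filter. It was at 0 to 0.036 FPKM in miR-181d-5p livers and 0 to 0.035 FPKM in controls. Klb, the obligate co-receptor, averaged 4.62 ± 0.939 FPKM in miR-181d-5p livers and 4.29 ± 1.16 FPKM in controls. Fgfr4, the main FGF receptor of hepatocytes, averaged 11.97 ± 1.182 and 10.995 ± 1.64 FPKM in the same order. Fgfr1, the receptor through which Fgf21 acts in fat, was at 2.59 to 3.65 FPKM in miR-181d-5p livers and at 3.95 to 5.27 FPKM in controls, with no overlap (log2 change -0.41, SE 0.10, adjusted p = 0.221 by limma). Fgfr3, another FGF receptor, averaged 7.38 ± 1.33 FPKM in miR-181d-5p livers and 9.92 ± 2.11 FPKM in controls (log2 change -0.38, SE 0.14, limma adjusted p = 0.273). The paralogs Trib1 and Chac2 had log2 changes of -0.30 and 0.17, against 0.90 for Trib3 and 0.51 for Chac1. That of Trib1 was -0.12 without control liver 5. These contrasts between paralogs were not tested.

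No marker of any liver cell type passed the adjusted test (lowest limma adjusted p = 0.221). All 9 stellate cell markers were lower, 7 of them at an unadjusted limma p under 0.05, and their summed level was 337 to 461 FPKM in miR-181d-5p livers and 457 to 639 FPKM in controls. All 6 tested cholangiocyte markers and 8 of 9 macrophage markers were lower, 4 and 3 of them at that level. Of all tested genes, 9.63% were lower at that level. The cholangiocyte sums were 114 to 370 FPKM in miR-181d-5p livers and 270.04 to 504.3 FPKM in controls, and the macrophage sums 1626 to 2891 and 2303 to 3190 FPKM in the same order. Endothelial markers summed to 137 to 146 FPKM in miR-181d-5p livers and 133 to 154 FPKM in controls, and were lower in 5 of 7. Lymphocyte markers summed to 9.13 to 14.1 and 9.21 to 19.5 FPKM in the same order, and were lower in 5 of 6. Hepatocyte markers were higher in 7 of 9. At an unadjusted limma p under 0.05 there was 1, higher, against 5.04% of tested genes higher at that level. Without control liver 5 there were 2, both higher, against 2587 genes over the table at that level, 30.7% of them higher. The hepatocyte sums were 34367 to 39042 FPKM in miR-181d-5p livers and 32784 to 39628 FPKM in controls. None of these markers was at 0 in all livers, and their part in the values of the stress response genes was not tested.

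On mm10 (GENCODE vM21), Atf4 lies at 80255184 to 80257541 on chromosome 15 and Ddit3 at 127290774 to 127296288 on chromosome 10. Atf5 (44812256 to 44816658) and Fgf21 (45613886 to 45615490) are both on chromosome 7. Trib3 (152337422 to 152344032) and Chac1 (119351229 to 119354381) are both on chromosome 2. Asns lies at 7675169 to 7693254 on chromosome 6, Sesn2 at 132492032 to 132510501 on chromosome 4, Gdf15 at 70629393 to 70632456 on chromosome 8 and Psat1 at 15904678 to 15947337 on chromosome 19.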

How the data were processed

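The authors deposited 1 table of FPKM values by gene symbol, from 10 libraries. Per the labels' protocols, mirVana RNA went into TruSeq Stranded mRNA libraries. The submitters' processing notes name mm10 with HISAT2 2.2.1, DESeq2 1.18.1, HTSeq 0.13.5, Trimmomatic 0.38, FastQC 0.11.9 and R 3.4.1, without roles. Neither the strand setting nor the FPKM formula is stated in what was used here, and overlapping genes may share reads. Table columns carry group and replicate number, which gave their sample. Gene lengths were searched until the FPKM became whole reads, which held for 17274 of 17274 genes (tolerance 0.02 of a read). Genes close to 0 FPKM in every liver pass this search at once with no reads, so for them it shows nothing. The length found equalled the merged exon length in GENCODE vM21 for only 206 genes. The recovered reads came to 99.994% to 99.996% of the estimated library totals. The median tested gene had 497 reads.

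Genes averaging 0.5 FPKM or more over the 10 livers, all 10 members among them, were fitted as log2(FPKM + 1) in limma 3.58.1 (R 4.3.3; eBayes with trend). Group was the only term, and p-values are two-sided, with Benjamini-Hochberg adjustment over all tested genes and a threshold of 0.05. Log2 changes are on that scale and understate low genes. Fit and read search were tested on simulated data. Members and lists were chosen with earlier results of these data known. Genes were named from the members, the smallest p-values of each list (up to 4 genes, or 2 in lists under 8), paralogs and receptors of members, and the 6 most alike genes. Exceptions are marked where they occur. After values had been seen, 4 symbols listed in error were taken out of the lists. Livers of 1 group differed beyond counting noise in every pair (lowest chi-square per degree of freedom 8.79). Alternatives were other pseudocounts, filters, scalings, moderation and weights, a replicate block, voom on recovered reads, and leaving out each liver. List counts and SDs without control liver 5 were added after seeing the data. Figures used matplotlib 3.10.9, and other steps Python 3.11.15 with pandas 2.3.3 and numpy 2.4.6.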

Additional observations from a re-analysis of the deposited data

Results flagged for a closer look

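Among 124 groups of 5 livers (62 genes in each vector group), 9 held a value far from the rest of its group. Chance gives about 1 in 20 groups, so several such values would occur by chance, and an excess was not tested. The 62 genes include 3 named after their values were seen, and Jun and Ppp1r15a of these are among the 9. Of the members, Gdf15 stood at 92.0 FPKM in control liver 5, the nearest control being 26.1 FPKM, and Psat1 at 11.4 FPKM in miR-181d-5p liver 3, the nearest of its group being 8.01 FPKM. Btg2, a p53 and growth-arrest gene, stood at 96.0 FPKM in control liver 5 against 35.5 FPKM for the next control. In miR-181d-5p liver 5, Angptl4 stood at 124.0 FPKM (next 62.7), Ppp1r15b at 22.4 FPKM (next 20.04) and Ero1a at 5.66 FPKM (next 5.12). Jun stood at 132 FPKM (next 49.4) and Ppp1r15a at 28.2 FPKM (next 11.2) in control liver 5, both genes named after their values were seen, and Sesn1 at 5.44 FPKM, the lowest of its group (next 7.25), in miR-181d-5p liver 4.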

How the results depend on the processing

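No member passed the adjusted test under any of the 23 alternatives, and the lowest adjusted p of a member was 0.153, for Atf5 without control liver 1. Of 62 gene changes (the 10 members and 52 other genes with values in the text or the smallest p-values of their list), 55 kept their sign under every alternative. The exceptions among members were Atf4 (-0.021 without control liver 2), Gdf15 (0.11 without control liver 5) and Ddit3, which became -0.028 with array weights, -0.015 by voom with quality weights, and ran from -0.166 to 0.182 when 1 liver was left out. For Atf4 that range was -0.021 to 0.162 and for Gdf15 -0.466 to 0.11. The other exceptions were Jun (-0.28 to 0.142), Ppp1r15a (-0.276 to 0.157), Sesn3 (-0.277 to 0.022) and Sesn1 (-0.054 to 0.079 when 1 liver was left out), and Sesn1, near 0 throughout, was 0.019 with median-of-ratios scaling, 0.04 with quantile normalization, 0.005 with array weights and 0.008 by voom with quality weights. The number of members at an unadjusted p under 0.05 ran from 0 to 5 when 1 liver was left out, and was 3 with a replicate block, which added Trib3. Over the table, 1074 to 2587 genes were under 0.05 when 1 liver was left out, and 1220 with the replicate block. Genes called over the whole table, 0 in the main test, ran from 0 to 3 when 1 liver was left out, and were 1 with the replicate block and 2 by voom with quality weights, with no member among them. Same-numbered livers did not deviate together (correlations -0.28 to 0.01, with 0 of 10 livers closest to its own number), so the numbers were not read as pairs. The lowest read number of a member in a liver was 60, for Chac1.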
